A study of Homo sapiens with 13 samples.

Results

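A pair of osimertinib-resistant PC9 lines that were growing in the drug was set against PC9 cultures that had stopped dividing after 28 days in it. The comparison used 6 of the 13 libraries of the series, chosen by their labels: 1 library each of the resistant lines named 5 and 10, and 4 libraries titled day 28. The 3 untreated libraries gave the reference profile. PC9 is an established human lung adenocarcinoma cell line that depends on a mutated epidermal growth factor receptor (EGFR), and osimertinib is an inhibitor of that receptor. Both treated groups received 500 nM osimertinib. Each resistant line came from a single-cell clone of PC9 kept in the drug until it was resistant, so each stands for 1 clone. Per the series' design text, resistant and untreated cells were taken in growth, whereas the day 28 cultures were not proliferating. Day 28 replicates 3 and 4 have a treatment label of 7 days that conflicts with their titles; they were kept at day 28 by title, and the comparisons are also given without them. Whether replicates are separate cultures is not stated in the labels; p-values thus cover the scatter among these libraries only, which could be technical.

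TrAEL-seq tags free 3′ ends of genomic DNA, and in dividing cells most of these ends lie at replication forks. The strand on which an end lies shows which way a fork was moving. A replication fork is the point where the DNA double strand is opened and copied; forks leave an initiation zone in opposite directions and meet those of the next zone in a termination zone. Cells of one type begin replication in largely the same zones in each cycle, so the direction of forks along the genome forms a reproducible pattern of steep rises and long declines.

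The values are strand polarities, the difference of reads on the opposite strands over their sum in percent, which can lie between -100 and 100. Of the 308844 windows of the table, the 143736 non-overlapping 20 kb windows of chromosomes 1 to 22 were averaged into 28738 windows of 100 kb, and the 25688 with values in all 9 libraries were compared. The sources used here give no read counts, so the depth is unknown; 20 kb windows with a value made up 86.9% in day 28 replicates 1 and 4 and 92.6% to 93.4% in the other 7 libraries. Coordinates are of GRCh38. From the untreated mean profile, 3402 initiation zones were called as rises of polarity through 0 by at least 40 points. Of these, 3146 could be measured in every library, with a median width of 160 kb. The 2943 termination zones are the mirror image, and 2691 of them were measured. Treating rises as initiation is an assumption made after the data were seen: the steepest 0.5% of rises over 60 kb in untreated cells exceeded 118.1 points, and the steepest 0.5% of falls went beyond -80.1.

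The resistant lines differed from each other more than the groups did. The amplitude of a library was its slope on the untreated mean profile, which is 1 when the fork pattern is as strong as in untreated cells and 0 when it is absent. Line 10 had an amplitude of 0.680 and line 5 one of 0.304. The day 28 libraries had amplitudes of 0.301 in replicate 1, 0.286 in replicate 2, 0.487 in replicate 3 and 0.360 in replicate 4. Line 10 therefore lay above all 4 day 28 libraries, while line 5 lay among them, between replicates 1 and 4. Each untreated library, measured against the mean of the others, had an amplitude of 1.01, 1.06 or 0.857, so all 6 compared libraries were below the untreated range.

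In relation to the untreated mean of 0.977 ± 0.108 (SD, n = 3), line 10 kept 69.6% of the amplitude and line 5 kept 31.2%. The day 28 libraries kept 30.8%, 29.2%, 49.8% and 36.8%, in the order of their replicate numbers. The group means were 0.492 ± 0.266 (SD, n = 2) for the resistant lines and 0.358 ± 0.0913 (SD, n = 4) for day 28. Their difference of 0.134 was smaller than the spread between the lines (two-sided exact permutation test, p = 0.4, adjusted p = 0.467 over 7 measures compared). With 2 libraries against 4, the smallest p this test can give is 0.133. Without replicates 3 and 4 the day 28 mean was 0.294 ± 0.0111 (SD, n = 2), and line 5 was then just above both remaining libraries (exact permutation p = 0.333, the smallest that 2 against 2 allow). The difference rested on line 10: without that line it was -0.0539, and without line 5 it was 0.322.

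**Figure D1:**
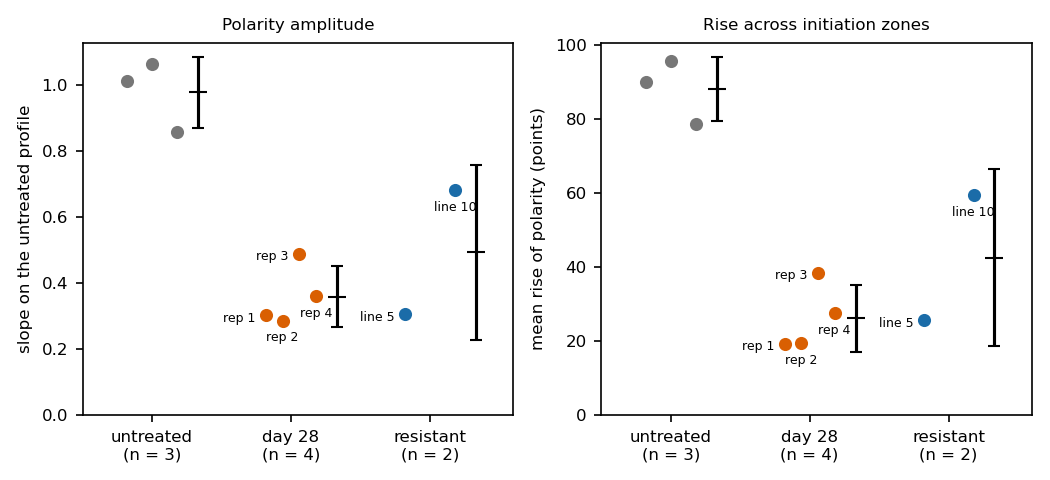
Polarity amplitude (left, slope on the untreated profile) and mean rise of polarity across 3146 initiation zones (right, points) in each library, with the group mean and SD as a bar beside the points. Each untreated library was instead measured against the other untreated libraries, on the right at zones called from those only. Line 10 is above all day 28 libraries in both panels, and line 5 lies within the day 28 range.

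The place of line 10 held on each chromosome, whereas that of line 5 among the day 28 libraries varied. On 22 of 22 chromosomes line 10 was above all 4 day 28 libraries, and on 0 of 22 was line 5. Line 10 ran from 0.657 on chromosome 22 to 0.699 on chromosome 16, and line 5 from 0.282 on chromosome 13 to 0.319 on chromosome 15. The day 28 libraries ran from 0.250 to 0.340 in replicate 1, from 0.249 to 0.304 in replicate 2, from 0.465 to 0.515 in replicate 3 and from 0.307 to 0.387 in replicate 4. No chromosome of line 10 came down to the range of the day 28 libraries. Replicates 1 and 2 had their lowest amplitude on chromosome 17.

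**Figure D2:**
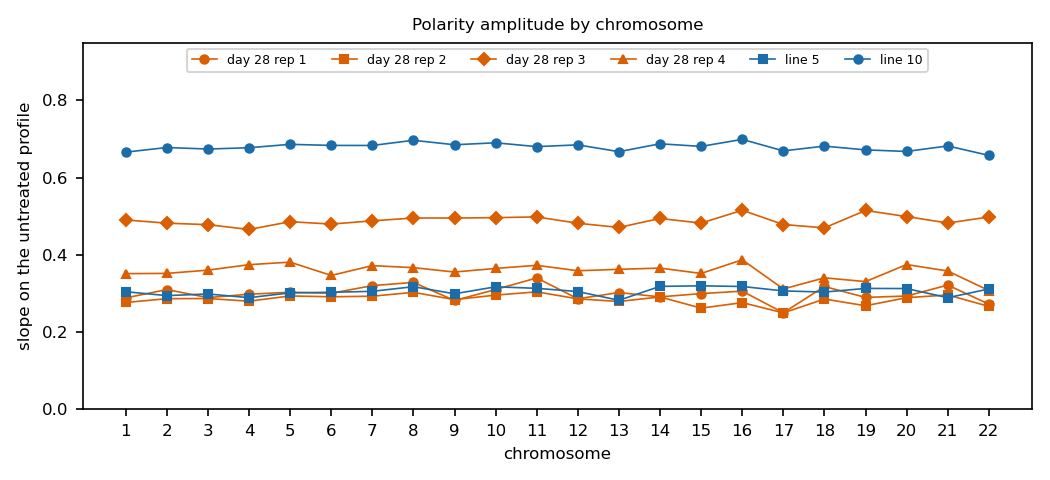
Polarity amplitude (slope on the untreated profile) of chromosomes 1 to 22 in the 4 day 28 libraries (orange) and the 2 resistant lines (blue). Line 10 lies between 0.657 and 0.699 throughout, and line 5, between 0.282 and 0.319, is above all 4 day 28 libraries on 0 of 22 chromosomes.

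Amplitude and scatter did not go together in the lines. Line 5 was as flat as day 28 replicates 1 and 2 but followed the untreated pattern more closely. Its correlation with the untreated mean over the 25688 windows was 0.8288 and that of line 10 was 0.927. In the day 28 libraries the correlation was 0.579, 0.733, 0.911 and 0.707. These coefficients are across windows, which share library and unknown depth, and describe the libraries only. The residual scatter around the fitted line was 8.88 points in line 5 and 11.9 in line 10, against 18.3, 11.4, 9.49 and 15.5 points in the day 28 libraries. Replicates 1 and 4, which had the most scatter, are also those with the fewest windows that hold a value; the part of depth in this was not tested.

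Among the 7383 windows where the untreated mean was 50 points or more from 0, line 5 had the untreated sign in 98.2% and line 10 in 99.7%. The day 28 libraries had it in 87.2%, 95.03%, 99.7% and 94.1%. Day 28 replicate 3 matched line 10 here and exceeded line 5, so the groups overlapped (exact permutation p = 0.4). The median distance from 0 over all windows was 10.9 points in line 5, the lowest of the 6 libraries, and 22.01 in line 10, the highest. Day 28 values were 15.6, 11.9, 16.3 and 15.4 points, and untreated values 31.7, 33.6 and 27.2 points. Unlike the slope, this median also takes in the scatter of a library. Strong single windows, 50 points or more from 0, made up 13.4% in line 10, 0.00389% in line 5 and 0.0973% to 2.46% in the day 28 libraries, against 25.2% to 32.7% in untreated cells.

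Polarity was below the untreated level in windows of both weak and strong fork direction. In the 5203 windows with an untreated mean 60 points or more from 0, the mean polarity in the untreated direction was 51.6 in line 10 and 23.1 in line 5. The day 28 libraries stood at 22.1, 21.1, 36.7 and 26.4 in the same windows. In the 6478 windows between 20 and 40 points, line 10 had 19.3 and line 5 had 8.70, against 9.48, 9.11, 14.2 and 11.2. Line 5 was thus the lowest of the 6 libraries in the weaker class and above day 28 replicates 1 and 2 in the stronger one.

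At initiation zones line 10 was again above all 4 day 28 libraries and line 5 among them. The mean rise across the 3146 zones was 59.6 points in line 10 and 25.6 in line 5. Day 28 libraries had 19.2, 19.4, 38.5 and 27.5 points. The untreated libraries had 90.1, 95.7 and 78.8, each at zones called from the other untreated libraries only. Line 5 was above day 28 replicates 1 and 2 and below replicates 3 and 4. The means were 42.6 ± 24.0 (SD, n = 2) and 26.2 ± 9.11 (SD, n = 4), a difference of 16.4 points (exact permutation p = 0.4). Without line 10 the difference was -0.543 points.

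Almost all zones kept a rise in both lines: 91.9% of the zones had a value above 0 in line 5 and 97.8% in line 10, against 71.5%, 82.5%, 95.7% and 83.1% in the day 28 libraries. In the 1049 zones strongest in untreated cells, the mean rise was 87.3 points in line 10 and 38.0 in line 5, with 31.7, 30.4, 58.3 and 42.1 at day 28. In the 1049 weakest it was 33.0 and 13.4 points, with 8.22, 9.32, 19.1 and 14.5 at day 28. Line 5 kept its place between day 28 replicates 2 and 4 in both classes. At termination zones the falls were -51.9 points in line 10 and -22.6 in line 5. The day 28 falls were -16.0, -16.5, -33.3 and -22.4 points, so line 5 lay just beyond replicate 4 there (difference of means -15.2, exact permutation p = 0.267).

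No single zone passed the test between the groups. Limma on the 6 libraries, with Benjamini-Hochberg adjustment at 0.05, called 0 of 3146 zones (0.0%), and the smallest adjusted p was 0.578. An unadjusted p under 0.05 was found for 130 zones (4.13%), of which 128 had the larger rise in the resistant lines. The median standard error of a difference was 21.7 points, so that only differences well above the mean difference of 16.4 points could be told from the spread. Both lines had a larger rise than all 4 day 28 libraries in 279 zones (8.87%) and a smaller one in 19 (0.604%). Line 10 alone was above all 4 in 2158 zones (68.6%) and below all 4 in 50 (1.59%). Line 5 was above all 4 in 312 zones (9.92%) and below all 4 in 411 (13.1%).

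Windows gave a like result. Limma called 0 of 25688 windows of 100 kb (0.0%), with 904 (3.52%) at an unadjusted p under 0.05. Both lines lay farther in the untreated direction than all 4 day 28 libraries in 1591 windows (6.19%) and less far in 792 (3.08%). Line 10 was farther than all 4 in 11802 windows (45.9%), and line 5 in 2291 (8.92%). Line 5 was less far than all 4 in 4754 windows (18.5%) and line 10 in 1681 (6.54%).

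Limma fits without line 5 or without line 10 set 1 library against 4, and its spread is assumed to be that of the day 28 libraries. Such fits say little about the remaining line, and their counts are left out here. Without day 28 replicates 3 and 4 limma called 6 of 26120 windows (0.023%) and 1 of 3225 zones (0.031%). Those named here were picked after their values were seen. The zone lies over FIGN, which encodes a microtubule-severing ATPase, at chr2:163700001-163860000. Its rise was 58.4 points in line 5 and 68.9 in line 10, against -73.0 and -18.3 in day 28 replicates 1 and 2 (difference 109.3 ± 23.4 SE, limma adjusted p = 0.0103). Day 28 replicate 3, which was left out, had 66.9 points there, within the range of the lines. Replicate 4 had no value there, so this zone was not part of the main test.

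Replicate 3 also stood with the lines in the 6 windows. The window with the smallest p lay in SLC14A2, the gene of a urea transporter, at chr18:45200001-45300000. Its polarity was -11.4 in line 5 and -53.7 in line 10, against 42.7 and 23.9 in replicates 1 and 2 (limma adjusted p = 0.000287), and -20.0 in replicate 3. The untreated mean was -24.0 ± 7.11 (SD, n = 3). This was also the single window called when replicate 3 alone was left out (limma adjusted p = 0.00340). Others lay in SCFD2 and MSC and nearest to SRD5A3 and POTED, at 46242 and 309777 bp. The window nearest to SRD5A3 had no value in replicate 4, so it was not part of the main test. In all 6 windows, day 28 replicates 1 and 2 had the sign opposite to the untreated mean, and both lines and replicate 3 had the untreated sign. The 6 windows were called for the gap between the lines and replicates 1 and 2. The opposite signs of these 2 replicates follow in part from that choice and are no separate finding.

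Dividing each library by its amplitude asks where the pattern itself differed. Limma then called 0 windows (0.0%) and 0 zones (0.0%), with 434 windows (1.69%) and 33 zones (1.05%) at an unadjusted p under 0.05. Both lines were farther in the untreated direction than all day 28 libraries in 1349 scaled windows (5.25%) and less far in 1517 (5.91%). For scaled zone rises these counts were 274 (8.71%) and 82 (2.61%). The divisor was the window amplitude, which does not bring mean zone rises to 1 level. As percent of the untreated mean, zone rises at day 28 were 21.8%, 21.9%, 43.7% and 31.2%, against amplitudes of 30.8%, 29.2%, 49.8% and 36.8%. In line 5 they were 29.0% against 31.2%, and in line 10 they were 67.6% against 69.6%. The zone counts thus also hold this genome-wide difference. Division raised the median standard error from 10.9 to 26.8 points in windows and from 21.7 to 47.9 in zones. The test on scaled values could therefore detect only very large local differences.

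The scaled features with the smallest p, none of which passed, are given as values. In the window of GRID1, a glutamate receptor subunit gene, at chr10:85600001-85700000, the scaled polarity was 38.6 in line 5 and 8.33 in line 10. Day 28 libraries had -97.5, -94.9, -26.1 and -115 there (limma adjusted p = 1.00), against an untreated mean of 1.37 ± 3.05 (SD, n = 3). The windows of MIPOL1 and nearest to SLITRK6 (500582 bp away) were next among those higher in the lines. CWF19L1, LOC124905938 (55900 bp away) and CDH2 (922871 bp away) marked the windows lower in the lines.

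Among scaled zones, the one nearest to SPOCK3, a proteoglycan gene 93384 bp away, had the smallest p. Its scaled rise was 144 points in line 5 and 76.3 in line 10, against -111, -106, 49.3 and -101 at day 28 (limma adjusted p = 0.998). Here replicate 3 stood with the lines and with the untreated mean of 59.3 ± 16.4 (SD, n = 3). Zones at TIPARP and nearest to HNF4G (473167 bp away) were next among those larger in the lines. The zones at RND3, TRAF7 and VGLL3 had smaller scaled rises in the lines. At TRAF7, the gene of a signalling adaptor, they were -1.52 and 85.1 points against 173, 168, 107 and 109 at day 28, where the untreated mean was 87.0 ± 8.46 (SD, n = 3).

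The 4 zones with the highest mean rise at day 28 lay at MR1, GREB1L, FMN1 and ARHGAP10. Each of them had a rise in every library, by amounts that varied, and at each the groups overlapped. At FMN1 day 28 replicate 1 had 158.5 points and replicate 2 had 49.3. At MR1, which encodes an antigen-presenting molecule, the day 28 rises were 116.7, 45.0, 97.5 and 99.3 points, and the lines had 56.6 in line 5 and 115.7 in line 10. At GREB1L day 28 gave 100.95, 69.7, 83.6 and 100.4 points, and the lines 67.5 and 123.3. These zones were chosen for their day 28 level, so their height at day 28 is no finding.

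The shape of the profile around initiation zones differed between the groups in a measure chosen after the data were seen. Polarity was averaged outward from the midpoints of all 3402 called zones, with the sign turned on the left side. The level at 300 to 500 kb was then divided by that at 80 to 140 kb. The ratio was 0.285 in line 5 and 0.283 in line 10. Day 28 libraries had 0.4003, 0.399, 0.311 and 0.336, and untreated libraries 0.247, 0.250 and 0.230. The groups did not overlap: the lines lay below every day 28 library and above every untreated one. The means were 0.284 ± 0.00165 (SD, n = 2) and 0.362 ± 0.0451 (SD, n = 4), a difference of -0.0779 (exact permutation p = 0.133, the smallest the design allows, and adjusted p = 0.467 over the 7 measures).

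Here line 5 and line 10 were alike although their amplitudes differed 2.23-fold. The level near the zone was 9.68% in line 5 and 22.02% in line 10, and the far level was 2.76% and 6.23%. In day 28 libraries the near level was 8.22%, 7.60%, 14.9% and 10.8%, and the far level 3.29%, 3.04%, 4.65% and 3.64%. Line 5 was thus above day 28 replicates 1 and 2 near the zones and below all 4 far from them. Around gene-poor zones alone the ratio was 0.0170 in line 5 and 0.0457 in line 10, against 0.102, 0.0896, 0.0615 and 0.0705 at day 28 and 0.0637, 0.0588 and 0.0480 in untreated cells. At these zones both lines were thus below every untreated library too, and day 28 replicate 3 was within the untreated range. Around gene-dense zones it was 0.370 in both lines, against 0.493, 0.546, 0.388 and 0.446 at day 28 and 0.314, 0.323 and 0.299 in untreated cells. The lines lay below all 4 day 28 libraries in both kinds of zone, but between them and the untreated libraries only in the gene-dense kind. Without day 28 replicates 3 and 4 the difference was -0.116.

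**Figure D3:**
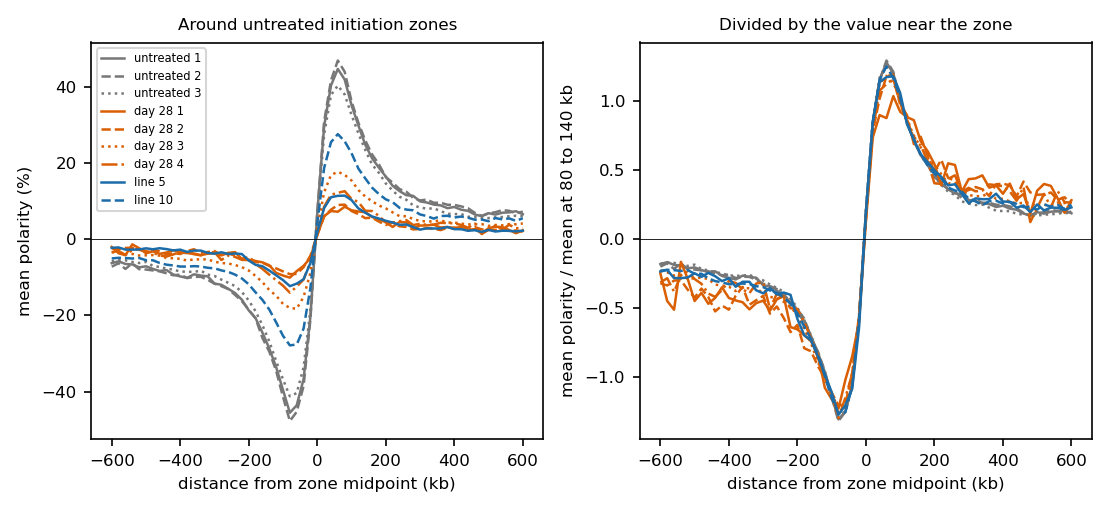
Mean polarity (left, percent) and the same divided by its level at 80 to 140 kb (right, ratio) against distance from the midpoint of 3402 untreated initiation zones (kb), with 1 line for each library. After division, day 28 libraries (orange) lie farther from 0 beyond 300 kb than the resistant lines (blue), whose ratio is 0.283 to 0.285, and the untreated libraries (grey).

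Gene-dense and gene-poor regions were compared because replication starts early in the former and late in the latter in most cells. Windows were split into 3 classes of equal size by the number of protein-coding genes within 1 Mb: up to 3 genes, 3 to 7, and 7 to 76. In line 5 the amplitude was 0.292 in gene-poor and 0.308 in gene-dense windows, and in line 10 it was 0.682 and 0.664. In day 28 replicate 1 it was 0.344 and 0.275, in replicate 2 it was 0.328 and 0.257, and in replicate 4 it was 0.409 and 0.326. Replicate 3 had 0.492 and 0.483. Line 5 was therefore the lowest of the 6 libraries in gene-poor windows and above day 28 replicates 1 and 2 in gene-dense ones.

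The gene-dense over gene-poor ratio was 1.05 in line 5 and 0.974 in line 10, close to the untreated values of 1.00, 1.01 and 1.07. It was 0.798, 0.785, 0.983 and 0.796 in the day 28 libraries. Day 28 replicate 3 lay between the lines and the other 3 lay below both. The means were 1.01 ± 0.0555 (SD, n = 2) and 0.841 ± 0.0951 (SD, n = 4), with a difference of 0.173 (exact permutation p = 0.267). Leaving out replicate 3, the only library that overlapped, was an alternative chosen after the data were seen. The difference was then 0.220 (exact permutation p = 0.2, the smallest that 2 against 3 allow). The absence of overlap and this p follow from that choice and add no evidence. On zone rises in place of slopes, taken relative to untreated cells, the difference was 0.0928 (exact permutation p = 0.4, an alternative chosen after the data were seen). The mean rise in gene-poor and gene-dense zones was 17.8 and 19.7 points in day 28 replicate 1 and 17.8 and 18.6 in replicate 2. Replicate 3 had 33.9 and 39.6 points, and replicate 4 had 26.4 and 25.8. The lines had 21.5 and 26.5 points in line 5 and 53.6 and 59.3 in line 10. By this reading day 28 replicates 1 and 3 overlapped the lines. Windows with a value made up 86.9% in replicates 1 and 4 and 92.7% in replicate 2; the part of coverage in the ratio was not tested.

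**Figure D4:**
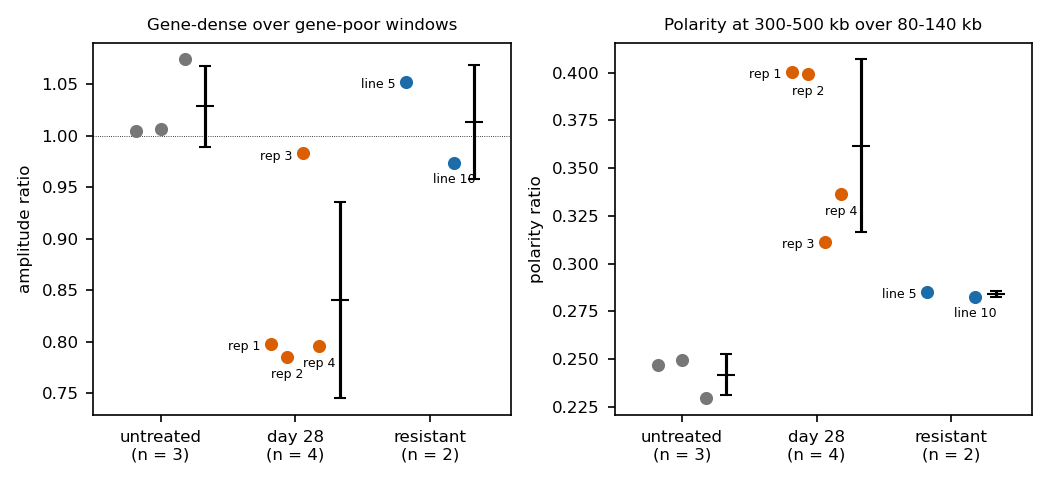
Ratio of the amplitude in gene-dense over gene-poor windows (left) and ratio of polarity at 300 to 500 kb over 80 to 140 kb from initiation zones (right) in each library, with group mean and SD beside the points; the axes do not start at 0. On the left, day 28 replicate 3 (0.983) lies with the resistant lines, and on the right both lines lie between the untreated and the day 28 libraries.

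The lines were also compared with each other after the untreated pattern was removed from each library. Over the 25688 windows the correlation of line 5 with line 10 was 0.855, and 0.414 after removal of the untreated profile. Day 28 pairs ran from 0.487 to 0.743, and from 0.135 to 0.268 after removal. Day 28 replicate 3 had 0.920 with line 10 and 0.837 with line 5, which became 0.487 and 0.353. These values are descriptions across windows that share their library's depth, and the noise of the untreated reference is shared by all residuals.

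Zones called anew in each line mostly fell on untreated zones. In line 5, 1185 rises of at least 40 points were called, of which 80.0% overlapped an untreated initiation zone. In line 10 there were 2935, of which 84.1% did. In the day 28 libraries 4307, 1333, 1945 and 3218 such rises were called, of which 41.2%, 62.6%, 89.2% and 51.7% overlapped an untreated zone. The rest had mean rises in untreated cells of -4.70 to -3.99 points for replicate 1 and 4.40 to 5.59 for replicate 2. For replicate 3 these were 33.6 to 41.9 points, and for replicate 4 they were 0.373 to 2.21. The part of scatter in these calls was not tested. For rises of at least 60 points the shares in the lines were 88.1% and 91.5%.

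Zones of a line that overlapped no called untreated zone still rose on average in the other libraries, the untreated ones included. The 237 such zones of line 5 had a mean rise of 27.4 points in line 10, 4.98 to 13.05 in the day 28 libraries and 19.6 to 22.6 in untreated cells. The 468 of line 10 had a mean rise of 17.1 points in line 5, 8.04 to 21.9 at day 28 and 33.8 to 39.6 in untreated cells. For 73 zones called in both lines and not in the untreated mean, the untreated libraries had 39.5, 45.2 and 45.4 points. The day 28 libraries had 18.9, 16.6, 28.4 and 17.7 points at these 73 zones. Of these 73, 59, 60 and 68 had a value above 0 in the untreated libraries, and 40, 51, 64 and 37 in the day 28 libraries.

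The genes of osimertinib resistance and of the cell cycle were read through the 100 kb window of their midpoint and the nearest untreated initiation zone within 200 kb of their start. Of 175 autosomal genes on 8 lists, 169 had a measured window and 114 a measured zone. No gene of any list passed limma with adjustment over all windows or all zones. FHIT, a common fragile site gene always to be named, had neither a measured window nor a measured zone.

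Of the receptor tyrosine kinases, MET had the zone with the smallest p among list genes. MET encodes the hepatocyte growth factor receptor, and its amplification is a known route of escape from EGFR inhibitors. The zone lies 3′ of most of MET, over its end and CAPZA2, at chr7:116780001-116900000. Its rise was 49.1 points in line 5 and 48.8 in line 10, against -36.3, -2.34, 36.5 and -69.8 at day 28. All 4 day 28 libraries lay below both lines, and 3 of them had no rise; the untreated mean was 51.7 ± 9.22 (SD, n = 3). The difference was 66.9 ± 19.8 points (SE), and the limma adjusted p = 0.578 was also the smallest over all zones.

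At EGFR, the target of the drug, the zone at chr7:54940001-55080000 covers the start of the gene. Its rise was 37.3 points in line 5 and 65.6 in line 10, against 48.4, 49.4, 42.7 and 55.9 at day 28. The lines thus enclosed the day 28 values (difference 2.37 ± 25.7 SE, limma adjusted p = 0.979), and all 6 libraries were below the untreated mean of 127.2 ± 19.0 (SD, n = 3). The zone over ERBB2, a partner receptor of EGFR, had 28.8 and 38.3 points in the lines, against -18.5, 7.11, 31.7 and 12.0. The zone at AXL, another receptor kinase of drug tolerance, had 18.5 and 66.2 points, against 16.9, 30.1, 54.4 and 14.7. The groups overlapped at the zones of each of these 3 genes.

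MYC, a transcription factor that drives growth, had the largest rise of the always named genes in line 10. The zone over MYC gave 124.3 points in line 10 and 49.4 in line 5, against 30.2, 26.7, 74.1 and 60.6 at day 28 and an untreated mean of 149.3 ± 5.40 (SD, n = 3). Line 5 was within the day 28 range. CCND1 and CCNE1 encode the cyclins D1 and E1, which carry cells from G1 into S phase. The CCND1 zone was weak everywhere, with 1.77 and 15.8 points in the lines and 3.89, -17.4, 8.10 and 3.63 at day 28. The zone at CCNE1 had 24.6 and 70.9 points, against 52.9, 25.6, 19.3 and 65.8.

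CDKN2A, which encodes the inhibitors p16 and ARF of the cell cycle, was set apart in both readings. Its zone at chr9:21920001-22020000 had 52.6 points in line 5 and 41.8 in line 10, against 37.6, -6.77, 1.54 and -14.0 at day 28 (limma adjusted p = 0.831). Both lines were above all day 28 libraries. Against the untreated mean of 32.6 ± 14.6 (SD, n = 3), line 10 lay within the SD and line 5 above it. The polarity of its window was -14.4 and -29.8 in the lines, against -3.67, 12.2, -9.96 and 22.2 at day 28 (limma adjusted p = 0.999). The untreated mean of this window was -12.8 ± 14.2 (SD, n = 3), so its untreated direction is not firm.

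**Figure D5:**
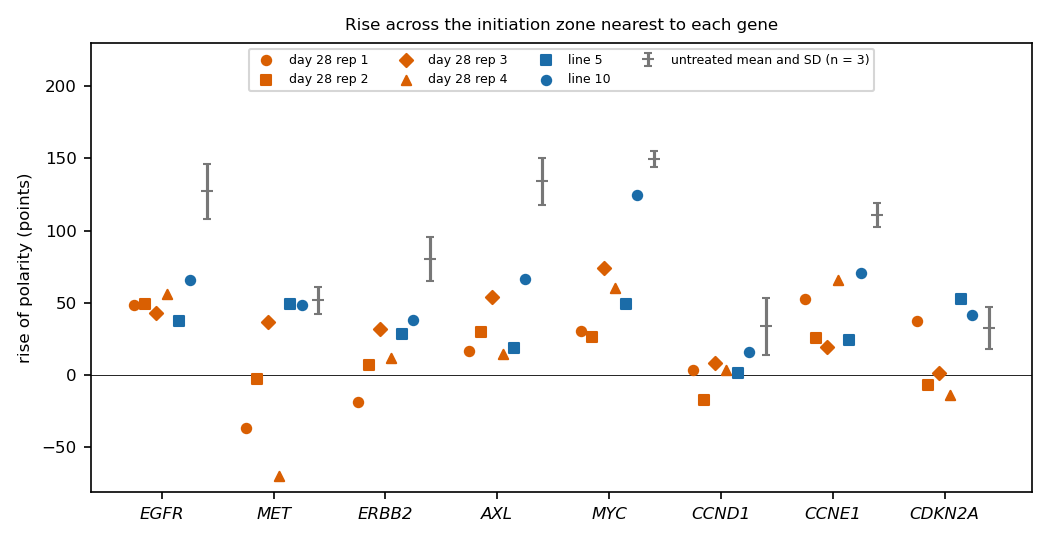
Rise of polarity (points) across the initiation zone nearest to each of 8 named genes in the 4 day 28 libraries (orange) and the 2 resistant lines (blue), with the untreated mean and SD in grey. At MET and CDKN2A both lines are above all 4 day 28 libraries, and at the other 6 genes the groups overlap.

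The lists are set beside all zones. Line 10 had the highest median zone rise of the 6 libraries in 8 of 8 lists. Among EGFR pathway and bypass kinase genes, 17 of 20 measured zones were above all day 28 libraries in line 10 and 2 in line 5, against 68.6% and 9.92% of all zones. The 2 zones where both lines were above were those of MET and GRB2, an adaptor of receptor kinases. Of the 14 zones of G1/S and cell cycle genes, 11 were above in line 10 and 1, that of CDKN2A, in line 5. The median rise of these 14 was 67.9 points in line 10 and 30.6 in line 5, against 33.9, 23.5, 40.6 and 29.6 at day 28. For all zones the medians were 59.5 and 25.7, against 18.7, 19.1, 38.3 and 27.7.

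The windows of the G1/S and cell cycle genes gave 15 of 20 farther in the untreated direction than all day 28 libraries in line 10 and 4 in line 5, against 45.9% and 8.92% of all windows. The 4 held E2F3, RB1, CDKN1B and CDKN2A, and both lines were farther there. At CDKN2A the untreated mean was within its SD of 0, so the direction counted there is not firm. All 20 had an adjusted p above 0.05 in limma. RB1 encodes the retinoblastoma protein, which holds back E2F transcription factors until cells pass into S phase. The polarity of its window was 33.4 in line 5 and 48.8 in line 10, against 5.17, 19.3, 29.9 and 30.0 at day 28 and an untreated mean of 68.7 ± 5.01 (SD, n = 3). CDKN1B encodes the inhibitor p27, and its window had -18.0 and -39.2 in the lines, against 1.205, -11.6, -17.6 and 14.7 at day 28 and -50.0 ± 5.56 (SD, n = 3) in untreated cells. At both genes line 5 was only slightly beyond the farthest day 28 library. CCND3, which encodes cyclin D3, went the other way: both lines, at -8.63 and -14.2, were less far than the day 28 libraries, at -14.7, -17.8, -26.8 and -16.4. In the other 7 lists line 5 was farther than all day 28 libraries in 1 to 4 windows each.

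The genes of origin licensing and forks, which load the helicase and copy DNA, had 25 measured zones. Of these, 19 were above all day 28 libraries in line 10, against 68.6% of all zones. In line 5, 1 zone was above, against 9.92% of all zones. That zone belonged to ORC3, a subunit of the origin recognition complex: 86.5 points in line 5 and 146.7 in line 10, against -1.62, 55.1, 47.5 and 44.6 at day 28. The untreated mean there was 161.0 ± 18.9 (SD, n = 3), so line 10 was within the untreated spread (limma adjusted p = 0.831). RFC1, the large subunit of the clamp loader, had the smallest window p of all list genes. Its polarity was -26.9 in line 5 and -44.3 in line 10, against 4.76, -12.6, -7.80 and 23.7 at day 28 and -56.8 ± 4.68 (SD, n = 3) in untreated cells (limma adjusted p = 0.999). RPA1, which binds single-stranded DNA, went the other way: its zone had -0.731 and 13.6 points in the lines and 62.9, 17.8, 15.8 and 26.7 at day 28. These genes were picked after their values were seen.

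Of all zones, 68.6% were above all day 28 libraries in line 10 and 9.92% in line 5. In the replication stress and damage response list, 10 of 15 zones were above in line 10 and 3 in line 5. The 3 were those of CHEK1, WEE1 and CLSPN, which restrain the cell cycle when forks stall. At WEE1 the rise was 51.8 points in line 5 and 58.9 in line 10, against -25.7, 22.5, 45.3 and -55.1 at day 28 (limma adjusted p = 0.831). Among mesenchymal and persister genes, 10 of 14 zones were above in line 10 and 2 in line 5, those of ITGB1 and TEAD4. The zone nearest to TEAD1, a transcription factor of the Hippo pathway, had 30.7 and 79.5 points in the lines, against -68.9, -0.487, 38.3 and 2.53. There day 28 replicate 3 exceeded line 5, so the groups overlapped.

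The remaining lists, which are short, had no zone with both lines above day 28, against 8.87% of all zones. For epithelial and lung genes line 10 was above in 8 of 13 zones, for tumour suppressors of lung adenocarcinoma in 5 of 8 and for common fragile site genes in 4 of 5, and line 5 in 0 of each. Of all zones, line 10 was above in 68.6% and line 5 in 9.92%. The median rise of the 5 fragile site zones was 63.9 points in line 10 and 9.38 in line 5, the latter below all 4 day 28 medians of 37.9, 18.5, 41.1 and 42.9. Fragile sites are long genes that replicate late and break under replication stress, and 14 of the 19 autosomal genes on that list had a measured window. Of all windows, both lines were farther than all day 28 libraries in the untreated direction in 6.19% and less far in 3.08%. Among these fragile site windows they were farther in 1 and less far in 1. In LSAMP, the first, the window polarity was 33.0 and 32.5 in the lines, against -18.3, 22.3, 15.2 and 0.673 at day 28 and 51.6 ± 7.34 (SD, n = 3) in untreated cells (limma adjusted p = 0.999). In NRXN3, the other, it was 7.28 and 6.85 in the lines, against 24.8, 25.9, 18.6 and 12.3 at day 28 and 14.4 ± 4.89 (SD, n = 3) in untreated cells.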

How the data were processed

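TrAEL-seq libraries of genomic DNA were processed by the authors with tools that, per the submitters' processing notes, include Bowtie2 2.4.1 and Trim Galore 0.6.5; the notes name GRCh38 and GRCm38, and chromosome ends of the table equal those of GRCh38. The deposited score of each 20 kb window (every 10 kb) ranges from -100 to 100 and was read from its values as strand polarity in percent. The sources used here do not give the strand convention, filters or read counts. Polarity is a ratio within a library, so library size was not scaled.

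Windows of 100 kb needed at least 3 of 5 values in each library. Zones were called on the untreated mean smoothed over 4 windows (80 kb). A zone's rise subtracts the mean of the 3 windows centred on its first window from that of the 3 centred on its last. Whole-table tests used limma 3.58.1 in R 4.3.3 (lmFit, eBayes with trend) on the 6 libraries, checked on simulated data. Library values were compared by two-sided exact permutation (scipy 1.17.1). Genes were placed with the RefSeq table of GRCh38.p14. Named were: features past the threshold with the largest differences (none passed); for scaled values the 3 smallest p each way; the 4 zones highest at day 28; list members past the threshold; and EGFR, MET, ERBB2, AXL, MYC, CCND1, CCNE1, CDKN2A and FHIT. Some items of this rule are not reported here. Other genes were named after their values were seen. Members and lists were chosen with earlier results of these data known.

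Alternatives covered left-out libraries, the reference, window and zone settings and the limma fit.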

Additional observations from a re-analysis of the deposited data

Results flagged for a closer look

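Day 28 replicate 3 stood apart from the other day 28 libraries in 2 of 49 groups of 4 values tested with Dixon's outlier test; chance alone marks about 1 in 20 such groups. Its gene-dense over gene-poor amplitude ratio was 0.983, against 0.785 to 0.798 in the other 3. Its scaled rise at the zone nearest to SPOCK3 was 49.3 points, against -111 to -101. Replicate 3 is one of the libraries whose treatment label says 7 days; replicate 4, which has the same label, lay with replicates 1 and 2 in both measures.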

How the results depend on the processing

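The amplitude and zone rise differences kept their sign under every alternative run except without line 10, where they turned to -0.0539 and -0.543; leaving out each library in turn gave -0.0539 to 0.322 and -0.543 to 33.4 points. For termination zones that range was -29.9 to -0.525 points, and for the gene density ratio 0.133 to 0.220. Raw window calls numbered 0 to 1 without each library, 1 of them without day 28 replicate 3. They numbered 6 without replicates 3 and 4, 5 with limma's array weights in addition (chosen after seeing the data) and 2 when 1 of 5 values sufficed for a window. Raw zone calls numbered 1 without replicates 3 and 4, in the 6-library fit, with all 13 libraries and with array weights (the last chosen after seeing the data), each time FIGN. Scaled windows and zones had 0 calls in every alternative run. The adjusted p of the MET zone ranged from 0.165 to 1.00. At 60 points, 88.1% of zones of line 5 and 91.5% of line 10 overlapped an untreated zone. Of 670 alternative values of named features, 0 passed the threshold and 19 moved by more than the spread between replicates. The alternatives for the far-to-near ratio and most for gene density were chosen after seeing the data. No paired analysis was possible because the resistant lines and the day 28 libraries share no replicate number. Unknown depth limits the noise of single windows.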

Other observations

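Chromosome X, which was outside the comparison, also had line 10 above all day 28 libraries and line 5 among them, by amplitude over 1195 windows: 0.674 in line 10 and 0.279 in line 5, against 0.267, 0.277, 0.472 and 0.345 in day 28 replicates 1 to 4. The mitochondrial genome, read as 1 window of 16569 bp, had a polarity of -46.9 in line 5 and -74.0 in line 10. It was -61.2, -58.8, -58.2 and -79.0 in the day 28 libraries and -58.6, -43.1 and -39.9 in the untreated libraries. The lines enclosed 3 of the 4 day 28 values there, and the order of libraries was not that of the nuclear amplitude.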
